A study of Mus musculus with 16 samples.

Results

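The genes described here encode the proteins of the cytoplasmic ribosome. They were chosen by symbol alone: every Rpl or Rps symbol that is followed by a number, with or without a final a, x or l, together with Rplp0, Rplp1, Rplp2 and Rpsa. The rule found 81 genes, 49 of the large and 32 of the small subunit, among the 24421 gene symbols in the table of each stage. Bulk RNA was sequenced from C57BL/6 mouse embryos labelled WT or KO. By the series title KO is loss of miR-302, a microRNA cluster expressed in early embryonic cells, and the labels do not state the allele. At E7.5 whole embryos were used (2 KO, 2 WT), at E8.5 Wnt1-Cre+ cells sorted from embryos (4 KO, 3 WT) and at E9.5 Sox10+ sorted cells (2 KO, 2 WT). Wnt1-Cre marks the dorsal neural tube and the neural crest derived from it, so the E8.5 population is not crest alone, and Sox10 marks migrating crest. The labels do not say whether a library is 1 embryo or a pool, nor do they name a Cre or reporter genotype for the E7.5 embryos. The E8.5 library labelled KO4_5s was not analysed here. Where nothing says that libraries came from separate embryos, p-values measure only the spread between these libraries.

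Each ribosome joins a small subunit, which reads the message, to a large subunit, which makes the peptide bond, and each ribosomal protein is present in 1 copy per ribosome, except for the stalk proteins P1 and P2. Ribosomal protein messages are short and abundant, and most are TOP mRNAs: they start with a cytosine followed by a run of pyrimidines, through which mTOR and LARP1 control their translation. Neural crest is sensitive to a shortage of ribosomes, as the craniofacial disorders caused by mutations in ribosome genes show. The miR-302 cluster acts by pairing its seed to sites in 3′UTRs.

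The first bases of transcription are shown because the pyrimidine run of a TOP message lies there. RefSeq gave 72 start sites for 60 of the 81 genes on GRCm38.p6. In a window of 30 bases, 15 of them before the start, 27 of the 72 sites (37.5%) held a run of at least 8 pyrimidines, against 12% of all 32851 start sites in that table. The windows of the 4 genes with the largest and the 4 with the smallest KO minus WT change at E9.5, among genes with 1 start site, read 5′ to 3′ on the gene's strand as follows, with the longest pyrimidine run in capitals.
Rpl41: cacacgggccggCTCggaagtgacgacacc
Rpl39: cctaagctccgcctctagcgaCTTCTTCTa
Rps12: taccgtcatgcggccaccgccggCCTTTTC
Rps28: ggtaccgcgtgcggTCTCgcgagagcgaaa
Rpl4: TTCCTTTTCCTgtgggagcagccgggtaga
Rpl5: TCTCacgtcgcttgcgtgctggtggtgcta
Rps4x: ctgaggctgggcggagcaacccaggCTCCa
Rpl15: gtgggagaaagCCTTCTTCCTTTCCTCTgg
These windows lie at chr10:128549154-128549183, chrX:37085208-37085237, chr10:23787195-23787224, chr17:33824548-33824577, chr9:64173372-64173401, chr5:107900513-107900542, chrX:102189377-102189406 and chr14:18270972-18271001 in that order, on the minus strand except for Rpl4 and Rpl5. The longest runs were 17 bases in Rpl15 and 11 in Rpl4, both among the smallest changes, and 8 in Rpl39 and 7 in Rps12, among the largest. Of these runs only that of Rpl15, which began 4 bases before the annotated start, spanned it. The run of Rpl4 lay at the edge of the window, from its first base, 15 bases before the start, and ended before the start. Those of Rpl39 and Rps12 began 6 and 8 bases after it. The other 4 windows, from both ends of the range, held runs of 3 or 4. Runs were measured inside the window only, so those touching its edge, in Rpl4, Rpl5 and Rps12, may be longer than given. In 300 bases around the start, the ETS core CGGAAG, searched on both strands, was found at 44 of the 72 sites (61.1%) and at 16.9% of all sites. The pyrimidine element CTTTCC, also on both strands, was found at 36 of the 72 sites and at 26.6% of all sites, the E-box CACGTG at 11.1% and 7.15%, and the TATA box TATAAA at 8.33% and 13.6%. A match is a description of letters, not a site in use.

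The sites at which the deleted microRNA could pair are shown next. These 3 guide strands of the cluster were matched in RefSeq, on chromosome 3 of GRCm38.p6, and are given with bases 2 to 8, the seed, in capitals.
miR-302b-3p: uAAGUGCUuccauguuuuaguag
miR-302c-3p: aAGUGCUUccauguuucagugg
miR-302d-3p: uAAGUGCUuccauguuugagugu
The first and the last of them share the seed AAGUGCU. Its match AGCACTT, or the 7-base match GCACTTA, was searched on the sense strand of the annotated 3′UTRs of GENCODE M21. It was found in 6 of 80 ribosomal protein genes (7.5%) and in 3082 of 19644 genes (15.7%). The match of the miR-302c-3p seed, which differs, was not searched, so these counts leave out its sites. The 3′UTRs of the ribosomal protein genes are short, with a median of 65.5 bases against 772 over all genes. The matches of 3 of these genes are given with up to 9 bases on each side, the match in capitals.
Rpl11: gggaccacaAGCACTTAaagaaagcc
Rpl23: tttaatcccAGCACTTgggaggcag
Rpl37: tttattcccAGCACTTggtgacagg
They start 98, 307 and 433 bases after the stop codon. Matches were also found in Rps15a and Rps20, whose annotated 3′UTRs of 4722 and 3167 bases are far longer than those of the other genes. KO minus WT log2 changes of these 5 named genes ranged from -0.27 to -0.19 at E7.5, from -0.89 to -0.33 at E8.5 and from 2.42 to 2.99 at E9.5, which lies within the range of the whole set at each stage.

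Libraries held 4912827 to 14861728 reads. Reads listed under Mir302a, Mir302b, Mir302c and Mir302d summed to 14 in E7.5 WT1 and 25 in WT2 and to 0 in both E7.5 KO libraries, where a count of 0 allows up to 3 reads. At E8.5 and E9.5 the sum was 0 or 1 in every library of both genotypes, so the target does not check the labels there. In the E9.5 crest cells, 11 crest markers summed to 2674 and 4412 normalised reads in KO and to 5480 and 5604 in WT. Not every marker was lower in KO. Sox10 measured 511 and 1165 in KO and 722 and 639 in WT. Foxd3 measured 79.2 and 294 in KO and 111 and 82.3 in WT. The other markers of that list are not given singly here. The 11 erythroid markers summed to 277070 in E9.5 KO1 but to 559 in KO2 and to 175 and 193 in WT, and at E8.5 to 18705 and 28931 in KO1 and KO2 and to 1134 to 2256 in the other 5 libraries. At E9.5 the 4 visceral endoderm markers summed to 665 and 1758 in KO and to 15.6 and 17.2 in WT. At E7.5 the 6 uterine markers summed to 17249 in WT2, to 962 in WT1 and to 122 and 127 in KO, and the 9 trophoblast markers to 28218 and 50680.5 in KO and to 6332 and 10626 in WT. In bulk samples, fewer cells of a type and less RNA per cell cannot be told apart.

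The set as a whole took a share of reads that differed by stage and by library. At E7.5 the ribosomal protein genes held 4.65% and 5.36% of all reads in KO and 4.40% and 7.55% in WT. At E8.5 they held 7.29%, 6.80%, 5.54% and 8.97% in KO1 to KO4, and 10.4%, 9.84% and 6.68% in WT1_5s, WT2 and WT3. At E9.5 they held 16.0% and 15.1% in KO and 5.13% and 4.79% in WT. The groups overlapped at E7.5 and E8.5 and stood apart at E9.5, where the KO mean was 15.6% ± 0.634 (SD, n = 2) and the WT mean 4.96% ± 0.236 (SD, n = 2), a ratio of 3.14. The 95% Wilson intervals of these shares, which cover counting error only, spanned at most 0.0479 percentage points. The 5 genes with the most reads did not carry the E9.5 difference alone: without them it was 8.94 percentage points, against 10.6 with them.

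**Figure D1:**
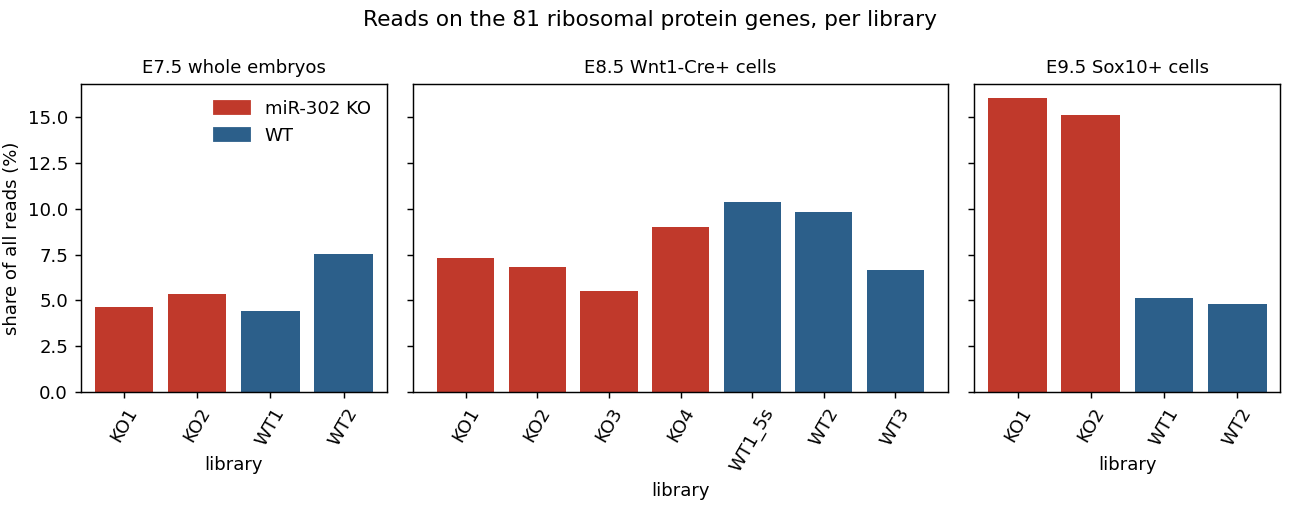
Share of all reads (%, vertical axis) on the 81 ribosomal protein genes in each of the 15 libraries, KO in red and WT in blue. The E9.5 KO bars reach 16.0% and 15.1%, and the E9.5 WT bars 5.13% and 4.79%.

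At E9.5 every ribosomal protein gene that could be tested was higher in the KO crest cells. The rise had a median log2 fold change of 2.63 (6.19-fold) over the 77 genes with a mean of at least 10 normalised reads, from 1.24 for Rpl4 to 3.32 for Rpl41. Fold changes here are on the scale of log2(normalised reads + 1). The 4 genes not tested were Rpl26, Rpl3l, Rpl10l and Rpl39l, with at most 2 reads in any E9.5 library. In limma's test over all 12000 genes, with Benjamini-Hochberg adjustment, all 77 passed an adjusted p of 0.05 as higher, where 24.5% of all genes did. In all 77 both KO libraries lay above both WT libraries, as in 38.6% of all genes. The median over all genes tested was -0.14. Without KO1, the library with high erythroid markers, the KO minus WT difference in the set's share of reads was 10.2 percentage points, against 10.6 with it. The change was widespread: 5700 genes (47.5%) were called, and 787 genes outside the set had a log2 fold change above the set's median. The deposited values summed to 13037864 and 14623235 in KO and to 7392263 and 7499920.2 in WT. Scaled to total reads instead, the median of all genes moved by -0.87, the set's median was 1.75, and 76 of its 77 genes were called higher, where 13.5% of all genes were. That scaling lowered the higher calls from 51.6% to 24.2% of all called genes.

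The 3 stalk genes encode the flexible arm of the large subunit that recruits elongation factors, and all 3 rose. Rplp0 (chr5:115559467-115563727, GRCm38), the base of the stalk, measured 93579 and 83929 normalised reads in KO and 14257 and 13169 in WT, the most of any gene of the set. Its log2 fold change was 2.69 ± 0.13 (SE; limma adjusted p = 0.000505). Rplp1 measured 39167 and 32714 in KO and 3924 and 3651 in WT, a change of 3.24 ± 0.15 (limma adjusted p = 0.000505). Rplp2, its partner, measured 26842 and 29746 in KO and 3942 and 3969.6 in WT, a change of 2.84 ± 0.13 (limma adjusted p = 0.000505). For each of the 3, both KO libraries lay far above both WT libraries.

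In the large subunit all 45 tested genes rose, with a median of 2.58. The largest rises were in the genes of its smallest proteins. Rpl41 (chr10:128548114-128549305), whose coding sequence of 75 bases is the shortest of the set, measured 61241 and 54434 in KO and 5996 and 5582 in WT. Its change was 3.32 ± 0.13 (limma adjusted p = 0.000505). Rpl39 (chrX:37082520-37085402), a small protein at the exit tunnel, measured 32545 and 30723 in KO and 3183 and 3331 in WT. That was a change of 3.28 ± 0.12, where the 2 KO libraries were close to each other and far from WT.

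The smallest rises were also in the large subunit, in the genes of 3 of its longest proteins. Rpl4 (chr9:64173375-64178666) measured 26193 and 32829.6 in KO and 12706 and 12088 in WT, a change of 1.24 ± 0.15. Rpl3 (chr15:80077791-80091868), which lies near the peptidyl transferase centre, measured 20095 and 22386 in KO and 8808 and 8165 in WT, a change of 1.32 ± 0.13. Rpl5 (chr5:107900502-107909005) binds 5S rRNA together with the Rpl11 protein, and the pair inhibits Mdm2 when assembly stalls. It measured 24265 and 31070.0 in KO and 11023 and 10354 in WT, a change of 1.36 ± 0.16. Limma's adjusted p-values were 0.00344, 0.00186 and 0.00305. Without E9.5 WT1, Rpl4 and Rpl5 no longer passed, and without WT2 none of the 3 did. Quantile normalization turned the direction, to -0.30 for Rpl4, -0.26 for Rpl3 and -0.21 for Rpl5, and Rpl3 was at 0.00 after removal of the length and GC trend. Rpl11, the partner of Rpl5, rose more: it measured 16297 and 18553 in KO and 3073 and 2830.1 in WT, a change of 2.56 ± 0.14. Rpl22 and its paralog Rpl22l1, which is outside the rule, rose by 2.39 ± 0.13 and 2.72 ± 0.14. Rpl38, which affects the translation of Hox messages, rose by 2.69 ± 0.12.

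In the small subunit all 32 genes rose, with a median of 2.69. Rps29 (chr12:69157722-69159186) measured 44307 and 45117 in KO and 4797 and 4868 in WT, a change of 3.21 ± 0.12. Rps12 and Rps28 changed by 3.11 ± 0.16 and 3.09 ± 0.12. Rps19, the gene most often mutated in Diamond-Blackfan anaemia, measured 43682 and 43122 in KO and 5986 and 5802 in WT, a change of 2.88 ± 0.12. Rpsa, also known as the laminin receptor, rose by 2.32 ± 0.12. Rps4x, on the X chromosome, measured 15647 and 17842 in KO and 4241 and 4081 in WT, a change of 2.01 ± 0.13. The least change in the small subunit was that of Rps4l, 1.92 ± 0.23, which GENCODE M21 annotates as a transcribed processed pseudogene. Of the 20 genes listed for human Diamond-Blackfan anaemia, 19 were tested and all 19 were higher, with a median of 2.66. All 20 belong to the set, in which all 77 tested genes were higher with a median of 2.63, against 24.5% of all genes. The count therefore adds nothing about the disease genes in particular.

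The genes did not rise by 1 common factor. With each library scaled to the median ribosomal protein gene, 19 of the 77 were higher in KO, 22 were lower and 36 did not pass, where 80.3% of all genes passed in one direction or the other. On that scale Rpl41 was higher by 0.74 and Rpl39 by 0.70, and Rpl4 and Rpl3 were lower by -1.33 and -1.25. Large-subunit reads were 1.32 and 1.33 times small-subunit reads in KO and 1.42 times in both WT libraries. Per base of transcript, Rps29 had 3.69 times the level of the median gene of the set in KO and 2.21 times in WT.

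**Figure D2:**
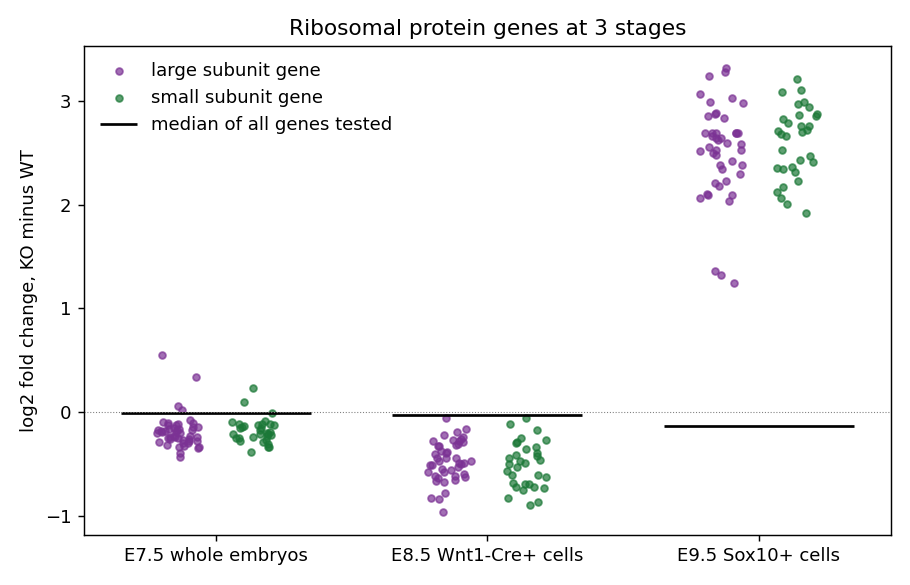
Log2 fold change, KO minus WT (vertical axis), of every tested ribosomal protein gene at each stage, as points for large (purple) and small (green) subunit genes; the black line is the median of all genes tested. The set lies around its medians of -0.20, -0.49 and 2.63 at E7.5, E8.5 and E9.5.

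The E9.5 changes went with length, in this set and over all genes. Spearman's rho between log2 fold change and coding length was -0.74 over 76 ribosomal protein genes and -0.63 over all 11919 genes with a length, the set included. With transcript length rho was -0.44 in the set and -0.67 over all genes; genes within a library share its preparation, so these are descriptions. Genes outside the set had a median log2 fold change of 2.71 where the transcript was under 500 bases long (167 genes), of 2.25 from 500 to under 1000 bases and of 1.11 from 1000 to under 2000. The median was -0.42 from 2000 to under 4000 bases and -1.63 at 4000 and over. The ribosomal protein genes had medians of 2.78 (14 genes), 2.53 (44 genes) and 2.39 (16 genes) in the first 3 of these classes. In the shortest class 91 of the 167 other genes were above the median of the whole set.

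With each library's trend over transcript length and GC content removed, the set's median change was 0.34, and 36 of its 77 genes were called higher and 0 lower. Of all genes, 10.4% were called higher on that scale. Transcripts under 500 bases then had medians of 0.26 in the set and 0.13 outside it, those from 500 to under 1000 bases 0.26 and 0.14, and those from 1000 to under 2000 bases 1.07 and -0.01. Rplp0 was higher by 1.34, Rpsa by 1.22 and Rpl41 by 0.76, while Rpl3 was at 0.00 and Rpl15 at -0.11. Rps15a and Rps20, at 4.18 and 3.90, had the highest values on that scale and also annotated transcripts of 5130 and 3706 bases, of which 390 and 357 are coding.

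**Figure D3:**
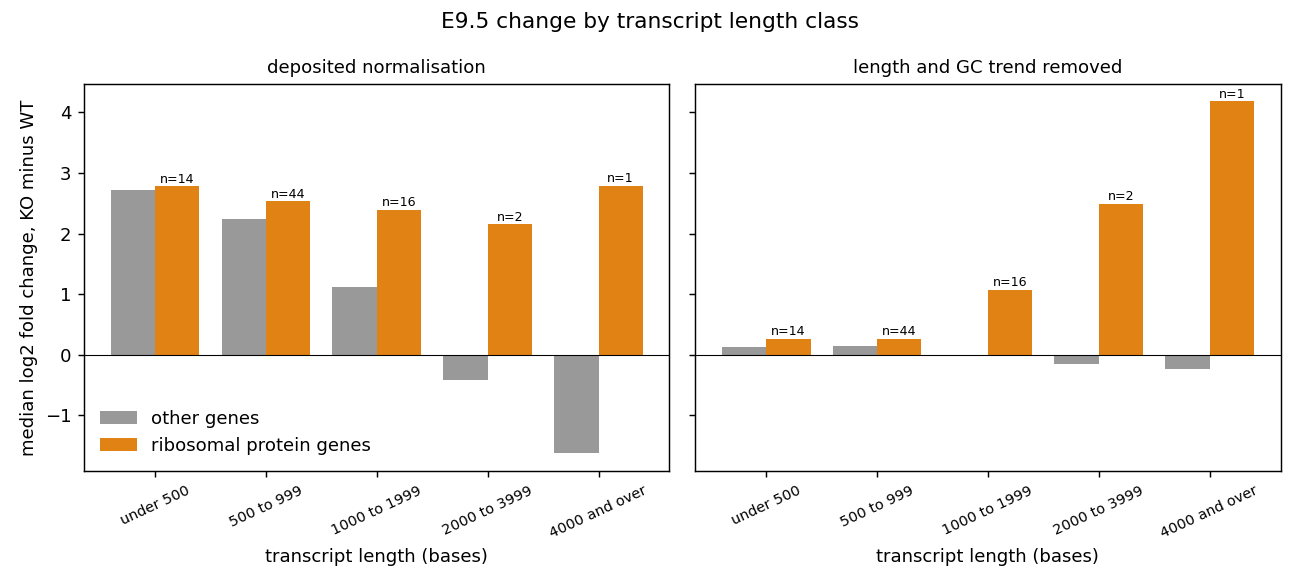
Median log2 fold change at E9.5 (vertical axis) by transcript length class (horizontal axis, bases) for other genes (grey) and ribosomal protein genes (orange, with their number), as deposited (left) and after removal of each library's trend over length and GC content (right). Under 500 bases both groups stand near 2.7 to 2.8 on the left and at 0.13 and 0.26 on the right.

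Share and length trend were also set side by side in each library. In each, the level of every other gene relative to its mean over the stage was ranked against transcript length. At E9.5 Spearman's rho was -0.49 and -0.60 in KO and 0.62 and 0.68 in WT. At E8.5 it was 0.50 in KO3 and 0.52 in WT3, which had the lowest ribosomal protein shares, and -0.43, -0.47 and -0.38 in KO4, WT1_5s and WT2, which had the highest. KO1 and KO2 lay between, at 0.01 and -0.06. At E7.5 WT2, with the highest share, had -0.22, KO2 -0.10, KO1 0.22 and WT1, with the lowest share, 0.26. At E7.5 the order of the shares was the reverse of the order of rho, and at E8.5 it was the reverse except within the neighbouring pairs KO4 and WT2, KO1 and KO2, and KO3 and WT3. Shares and rho come from the same libraries, so this describes them and has no test. At E9.5 the code at the end of the sample description was 171 for both KO and 209 for both WT libraries, so that genotype and code cannot be told apart.

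**Figure D4:**
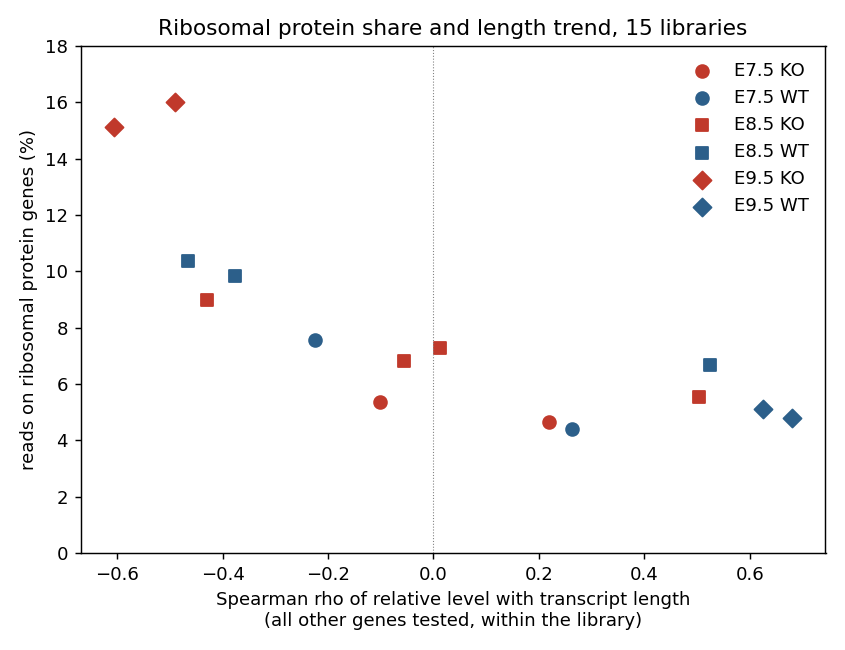
Share of reads on the ribosomal protein genes (%, vertical axis) against the Spearman rho of relative level with transcript length over all other genes (horizontal axis) in 15 libraries, coloured by genotype and shaped by stage. The E9.5 KO libraries lie at the upper left and the E9.5 WT libraries at the lower right, with the E8.5 libraries of both genotypes spread between.

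At E8.5 all 77 tested ribosomal protein genes had a lower mean in KO than in WT, but none passed the adjusted test. In none of them did every KO library lie below every WT library, as in 2.82% of all genes. The median log2 fold change was -0.49 (1.40-fold lower), against -0.03 over all 12257 genes, of which 53.1% were below 0. Limma called 0 of the 77, and 0.0% of all genes, at an adjusted p of 0.05. At an unadjusted p of 0.05 it found 5 of the 77, all lower, and 2.91% of all genes lower, 742 genes in either direction. Neither edgeR nor DESeq2 called any of the 77, and over all genes they called 0 and 28. Without WT3 the set's median was -0.84, without KO3 -0.27, and without KO1 and KO2, the libraries with high erythroid markers, -0.54. With the codes 163 and 169 against the other codes as a block it was -0.12 and 17 of 77 were above 0. Between KO4 and WT2, the only KO and WT libraries that share a code, the median difference was -0.26.

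The 5 genes that passed unadjusted were Rplp2, Rps20, Rps12, Rpl37a and Rpl22. Rplp2 measured 9131, 7661, 5714 and 16191 normalised reads in KO1 to KO4 and 21749, 21484 and 11551 in WT1_5s, WT2 and WT3. KO4 lay above WT3, so the groups overlapped, and the change was -0.97 ± 0.39 (limma adjusted p = 0.807). Rps20, a small-subunit protein, measured 4684, 4453, 3207 and 8469 in KO and 11503, 11117 and 5794 in WT, a change of -0.89 ± 0.37. Rps12, Rpl37a and Rpl22 had changes of -0.83 ± 0.35, -0.83 ± 0.37 and -0.78 ± 0.35, with the same 2 libraries crossing. Rpl38 had -0.83 ± 0.44, Rps19 -0.60 ± 0.40 and Rpl22l1 -0.56 ± 0.36. Rplp0 and Rplp1 had -0.49 ± 0.37 each.

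Rpl7 was nearest to 0. It measured 10586, 10891, 7406 and 9688 in KO and 13318, 11662 and 6223 in WT, a change of -0.05 ± 0.31 whose groups overlapped fully. Rps4x had -0.11 ± 0.32 and Rpl10 -0.16 ± 0.34. Within the set the change went with coding length, the shorter coding sequences lying further below WT: Spearman's rho was 0.66 over 76 genes and 0.081 over all genes. With transcript length rho was 0.24 in the set and 0.097 over all genes. After removal of the length and GC trend the set's median was -0.26, and 8 of 77 genes were above 0. With each library scaled to the median of the set, 0 of the 77 passed.

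**Figure D5:**
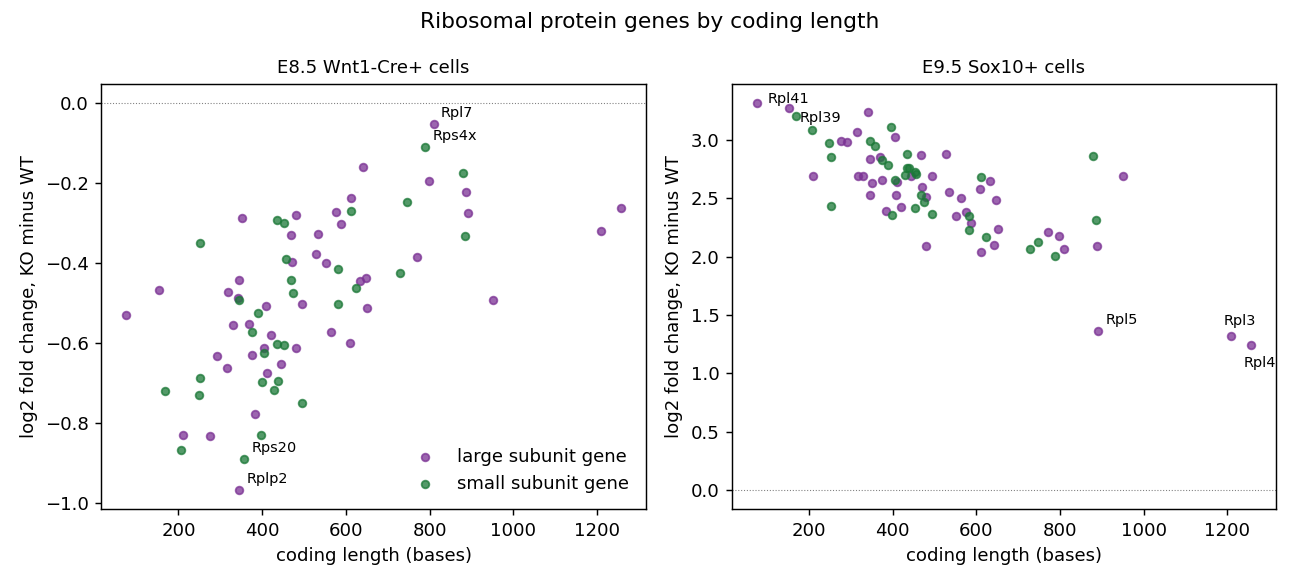
Log2 fold change, KO minus WT (vertical axis), against coding length in bases (horizontal axis) for the ribosomal protein genes at E8.5 (left) and E9.5 (right), large subunit in purple and small subunit in green. Spearman's rho is 0.66 at E8.5 and -0.74 at E9.5, and Rpl4, Rpl3 and Rpl5 stand lowest at E9.5.

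At E7.5 no ribosomal protein gene passed the test. Limma called 0 of 79 tested ribosomal protein genes and 0.0% of 12492 genes; at an unadjusted p of 0.05 it found 0 of the 79 and 385 genes (3.08%) in all. Neither edgeR nor DESeq2 called any of the 79, and over all genes they called 0 and 31. The set's median was -0.20, with 73 of 79 below 0, where 51.1% of all genes were. Without WT2 the median was 0.33, and without WT1 -0.72. Rplp0 measured 12694 and 14379.7 in KO and 12024 and 18508 in WT, so that both KO values lay between the WT values, a change of -0.14 ± 0.37. Rps4l, at 2143 and 2476 in KO and 1857 and 2065 in WT, was the only 1 of the 81 with both KO libraries above both WT libraries, as in 16.1% of all genes, and its change of 0.23 ± 0.28 did not pass.

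A few genes of the set had almost no reads. Rpl26, a large-subunit gene needed in every cell, had 0 or 1 read in each E7.5 library, 0 to 4 at E8.5 and 0 at E9.5. Rps27, Rpl30 and Rpl34 had 10 to 57 reads at E7.5 and 12 to 240 at E8.5 and E9.5. These genes have 6, 1, 9 and 2 annotated pseudogenes that carry their name. How reads that match several places were counted is not given in the sources used here, so these 4 levels are uncertain; over the set the number of such pseudogenes ran from 0 to 24, the most for Rps12 and Rpl31. Another 3 genes, paralogs of restricted expression, were also low. Rpl10l, the testis paralog of Rpl10, had 16 to 81 reads at E7.5 and 0 at E8.5 and E9.5. Rpl39l had 44 to 75 reads at E7.5, 0 to 3 at E8.5 and 0 at E9.5. Rpl3l, the muscle paralog of Rpl3, had at most 3 reads in any library.

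Genes that work with the ribosome are given beside the 24.5% of all genes that were called higher and the 23.0% called lower at E9.5. The counts for these lists, here and in the next paragraph, do not allow for transcript length, with which the E9.5 changes went. Genes outside the set had medians of 2.71 under 500 bases and 2.25 from 500 to under 1000 bases. Of the 7 tested cytoplasmic ribosome genes outside the rule, all 7 were higher, with a median of 2.19. Rpl7l1, a paralog of Rpl7, changed by 0.71 ± 0.16, and by -0.18 when scaled to total reads. Of 77 mitochondrial ribosomal protein genes 74 were higher and 0 lower, with a median of 1.89; Mrpl33 changed by 2.89 ± 0.16. Their share of reads was 1.72% and 1.77% in KO and 0.882% and 0.789% in WT. Of 18 genes for elongation factors and other TOP messages 13 were higher and 1 was lower, with a median of 1.03. Tpt1, a TOP message, changed by 2.44 ± 0.12.

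Genes that build ribosomes were called in both directions, beside the same 24.5% higher and 23.0% lower over all genes. Of 54 assembly and rRNA processing genes 17 were higher and 21 lower, with a median of -0.26; Nop10, of the H/ACA guide particles, changed by 2.54 ± 0.14. Of 14 genes for RNA polymerase I and its factors 3 were higher and 5 lower, with a median of -0.46, and Polr1a, its largest subunit, fell by 2.68 ± 0.29. With the length and GC trend removed Polr1a was at -0.90 and no longer passed, nor did it pass without WT2. Of 15 regulators 1 was higher, Eif4ebp1, the repressor of cap-dependent translation, at 2.20 ± 0.15. Another 7 were lower, among them Mycn, a driver of ribosome synthesis, which fell by 1.28 ± 0.19 and did not pass without WT1 or without WT2. Reads listed under Rn45s, the ribosomal RNA precursor, made up 0.969% and 0.918% of reads in E9.5 KO and 0.0563% and 0.0904% in WT. At E8.5 its share ran from 0.0443% to 0.0905% in KO and from 0.0716% to 0.165% in WT. The cause of the E9.5 difference was not tested, and genotype and sample code cannot be told apart there. At E8.5 and E7.5 none of the genes in these lists passed the adjusted test in limma; at an unadjusted p of 0.05, 3 did at E8.5 and 1 at E7.5. The medians at E8.5 were -0.17 for the mitochondrial ribosome, -0.29 for the elongation and TOP genes and -0.05 for assembly.

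The authors' deposited table of genes higher in E9.5 KO lists 3548 of the 24421 gene symbols, among them 77 of the 81 genes. These 77 had log2 fold changes from 1.25 to 3.32 and a median of 2.65, all with an adjusted p under 0.05. Their deposited table of genes lower in E8.5 KO lists 437 of the 24421 symbols, among them 7 of the set. These 7 ran from -0.92 to -0.70, none with an adjusted p under 0.05. The mean levels in the authors' deposited table for E7.5 lie within 1% of those in the normalised counts for 0.0890% of its genes, against 100% at the other stages, so no value is taken from it.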

How the data were processed

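RNA was measured in 15 libraries made, per the labels' protocols, from total RNA with SMART-Seq v4 cDNA and Nextera XT, which do not mark strand. Alignment was to mm10 by STAR 2.7.0f after FastQC 0.11.5, per the submitters' processing notes. Which read counter, annotation and normaliser followed is not given in the sources used here. For each stage the authors deposited 1 table of normalised counts, a signal in which each count is divided by 1 size factor per library; all values came back as whole reads (100% within 0.01 of a read). Per the file headers, the authors' tables of listed genes hold a mean signal, a log2 fold change with its error, a test score and p-values.

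Tests used limma 3.58.1 (R 4.3.3; trended, two-sided, Benjamini-Hochberg adjusted, threshold 0.05) on log2(value + 1) within each stage, over genes with a mean of at least 10. On counts simulated at these depths, limma recovered 32% of log2 changes of 1 and 100% of changes of 2 at E7.5 (12548 genes). It recovered 64% and 100% at E8.5 (12296 genes), and 32% and 97% at E9.5 (12029 genes). False calls were 7, 5 and 8 in that order. The simulation gave every gene the same dispersion of 0.05 and no length trend, so its recovery need not hold in these libraries. On recovered reads, edgeR 4.0.16 called 5475 genes at E9.5 and 0 at the other stages, and DESeq2 1.42.0 called 31, 28 and 5865. Length and GC trends were loess curves (span 0.3) per library on transcripts of GENCODE M21, which matched 23334 current and 668 older symbols of 24421, and all 81 ribosomal protein genes. Statistics outside R used Python 3.11.15 with scipy 1.17.1.

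Genes named with values were, per stage, the 6 most negative and 6 most positive changes among tested members with a mean of at least 50, members past the threshold, a fixed list of stalk, paralog and disease genes, up to 4 genes with the smallest p of each related list, and Rpl22l1; from these, a selection is printed. Rps15a, Rpl7l1 and the genes with seed matches or few reads were named after their values were seen. Some genes of the set are not reported here. The members and lists were chosen with earlier results of these data known.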

Additional observations from a re-analysis of the deposited data

Results flagged for a closer look

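Among 19 groups of 4 E8.5 KO libraries tested for a library that stands apart, 2 had one, and chance alone marks some of so many groups. For Rpl10, a large-subunit protein at the peptidyl transferase centre, KO3 measured 6342 normalised reads and the other 3 libraries 10951 to 11252, so that the gap below them took up 0.939 of the group's range. The ratio of large-subunit to small-subunit reads was 1.44 in KO3 and 1.35 in KO1, KO2 and KO4, a gap of 0.928 of the range. KO3 also had the lowest share of reads on ribosomal protein genes at E8.5, 5.54%, and the only code 157; their part in these values was not tested.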

How the results depend on the processing

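Over the alternatives run, 38 of 40 values at E7.5, 275 of 312 at E8.5 and 463 of 513 at E9.5 kept their direction and side of the threshold; scaling to total reads, the crossed block and the trend fitted without the ribosomal protein genes were added after seeing the data. DESeq2 called 31 genes at E7.5 and 28 at E8.5, and the 3 E7.5 libraries of code 239 gave 18.

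Same-numbered libraries had correlations of -0.12 at E7.5, -0.17 at E9.5 and 0.076, -0.025 and 0.55 at E8.5, so the numbers were not taken as pairs. With the replicate block 47 genes were called at E7.5, 663 at E8.5 (KO4, which has no partner, left out) and 5722 at E9.5; 50 ribosomal protein genes were then lower at E8.5, where 4.18% of all genes were, with a median of -0.66. With the crossed block 48 genes were called at E7.5 and 6665 at E9.5.

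With the length and GC trend removed, 2209 genes and 36 ribosomal protein genes (median 0.34) were called at E9.5, and with the trend fitted without them 2221 and 37 (0.37). Quantile normalization gave an E9.5 median of 1.24, total reads 1.75, and scaling to the set's own median, which sets it near 0 by construction, 0.053 with 41 of the set and 9641 genes called (23 genes at E7.5). The E9.5 share difference was 5.95 points over the large subunit, 4.65 over the small and 8.94 without the 5 genes with most reads.

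Signs changed at E8.5 for Rpl7, Rps4x and Rpl10: 0.15, 0.10 and 0.091 with codes 163 and 169 as a block, 0.017, 0.022 and 0.040 with the trend removed, 0.014, 0.012 and 0.024 with it fitted without the set, 0.26, 0.18 and 0.17 with quantile normalization, and 0.45, 0.39 and 0.34 on the set's median. Total reads gave Rpl7 0.10 and Rps4x 0.041, and the set's median gave Rplp0 0.0099 and Rplp1 0.015 at E8.5 and Rplp0 0.090 at E7.5. At E9.5 the trend's removal gave Rps4l -0.32, Rpl15 -0.11, Rpl22 -0.054 and Rpl38 -0.023, or -0.31, -0.10 and -0.020 for the first 3 with the trend fitted without the set. Quantile normalization gave Rpl4 -0.30, Rpl3 -0.26, Rpl5 -0.21 and Rpl7l1 -0.37, and total reads Rpl7l1 -0.18. The set's median gave Rpl4 -1.33, Rpl3 -1.25, Rpl5 -1.21, Rps4l -0.66, Rps4x -0.57, Rpl15 -0.54, Rpsa -0.26, Rpl22 -0.19, Rpl11 -0.017, Rpl7l1 -1.86, Tpt1 -0.14, Nop10 -0.033 and Eif4ebp1 -0.38. The cause of these changes was not tested.

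Leaving out each library in turn, 0 to 39 genes were called at E7.5, 0 to 3 at E8.5 and 794 to 8694 at E9.5, and 70 to 77 ribosomal protein genes at E9.5 (72 without WT1, 70 without WT2). The set's medians ran from -0.72 to 0.33, -0.84 to -0.27 and 2.57 to 2.65, and share differences from -2.54 to 0.61, -2.94 to -1.11 and 10.2 to 11.0 points. At E7.5 Rplp0 ran from -0.45 to 0.17; at E8.5 Rpl10 from -0.49 to 0.043, Rpl7 from -0.39 to 0.16 and Rps4x from -0.45 to 0.11. An arm left with 1 library is assumed to vary like the other. Intervals and limits on counts cover counting error only.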
